A study of Mus musculus with 28 samples.

Results

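The 10 genes described here mark radial glia and neural progenitors: the transcription factor genes Pax6, Sox1, Sox2, Sox3, Sox9 and Gli3, the intermediate filament genes Nes and Vim, the lipid-binding protein gene Fabp7 and the membrane protein gene Prom1. They were chosen by gene symbol, each was found with 1 probe set that the annotation assigns to no other gene, and they are 10 of the 19938 genes measured. The study hybridised total RNA of 129SvEv mouse cells to Affymetrix whole-transcript arrays, 28 of them in 12 groups. It followed cells without topoisomerase IIβ (Top2β), an enzyme that passes one DNA duplex through another and is the main such enzyme of postmitotic neurons, through differentiation in culture. It also treated neurons with ICRF-193, a bisdioxopiperazine that inhibits type II topoisomerases by holding them as a closed clamp on DNA.

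The differentiation groups were Top2β knockout (KO) and wild-type (WT) embryonic stem (ES) cells, neuronal progenitor (NP) cells and the stages labelled TN day 2 and TN day 6. TN day 6 had 3 KO and 3 WT arrays, and each earlier stage had 2 and 2. The drug groups were neurons at TN day 5 with ICRF-193 or DMSO (2 arrays each) and cortical glutamatergic neurons from E16.5 embryos with ICRF-193 or DMSO (3 arrays each). Per the labels, the dose was 50 µM, renewed every 24 h between TN days 2 and 5, and one treatment text covers all samples, so the days of treatment of the cortical neurons are not known. The labels do not spell out TN, give no genotype for the drug-treated neurons, do not say how the KO line was made or whether it is 1 clone, and do not tell whether replicates were grown separately. The p-values below therefore measure only the spread between arrays, which may be technical.

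Radial glia are the dividing cells that line the ventricles of the developing brain and give rise to neurons and later to glia. The culture system used here turns ES cells into Pax6-expressing progenitors of this kind, which then become glutamatergic neurons. Sox1, Sox2 and Sox3 are closely related HMG-box factors that hold neural cells in the progenitor state, Sox2 also being a core factor of pluripotency, and Sox9 acts in neural stem cells and in the switch to glia. Pax6 is a paired-box and homeobox factor of radial glia in the dorsal forebrain, and Gli3 is a zinc-finger factor of the hedgehog pathway that acts mainly as a repressor. Nes (nestin) and Vim (vimentin) form the intermediate filaments of the radial process, Fabp7 binds fatty acids in radial glia and is a target of Notch signalling, and Prom1 (prominin) sits in membrane protrusions of the apical surface.

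The upstream sequences of 3 genes are shown because the comparisons below turn on them: Fabp7 and Sox2, which differed most among the 10 genes after ICRF-193 at TN day 5, and Pax6, which differed most in KO cells at TN days 2 and 6. Each is the stretch of 250 bases before an annotated start in RefSeq (GRCm38.p6), on the plus strand, at chr10:57784673-57784922 for Fabp7, chr3:34649745-34649994 for Sox2 and chr2:105668646-105668895 for the first of the Pax6 starts listed. Capitals mark matches to the motifs searched.
Fabp7: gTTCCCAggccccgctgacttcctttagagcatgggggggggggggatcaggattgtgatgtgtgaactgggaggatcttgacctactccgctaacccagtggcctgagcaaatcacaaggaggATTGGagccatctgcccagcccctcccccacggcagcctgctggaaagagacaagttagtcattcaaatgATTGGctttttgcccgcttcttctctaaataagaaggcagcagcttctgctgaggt
Sox2: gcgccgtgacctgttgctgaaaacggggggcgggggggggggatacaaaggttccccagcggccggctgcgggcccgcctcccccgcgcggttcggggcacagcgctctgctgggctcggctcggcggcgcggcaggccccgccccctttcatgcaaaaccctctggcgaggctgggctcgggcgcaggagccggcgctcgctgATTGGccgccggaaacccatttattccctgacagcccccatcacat
Pax6: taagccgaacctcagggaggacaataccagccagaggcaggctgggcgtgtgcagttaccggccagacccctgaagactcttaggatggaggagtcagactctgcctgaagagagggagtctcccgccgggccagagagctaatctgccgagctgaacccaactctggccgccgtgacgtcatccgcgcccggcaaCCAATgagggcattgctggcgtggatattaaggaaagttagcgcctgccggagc
The motifs, sought on both strands, were the RBPJ core TGGGAA, the SOX core ACAATG, the POU octamer ATGCAAAT, the GLI site GACCACCCA, the TATA box TATAAA and the CCAAT box CCAAT, and none of these overlapped another in the sequences shown. Fabp7 had an RBPJ core match 249 bases before its start, RBPJ being the DNA-binding partner of Notch, and CCAAT boxes at 126 and 56 bases. Sox2 had a CCAAT box at 46 bases and Pax6 at 54 bases. RefSeq promoters were on hand for 8 of the 10 genes, with 10 starts. The RBPJ core lay in 2 of these 10 windows (Fabp7 and Prom1), against 21.6% of all 32851 windows of the same length. A CCAAT box lay in 6 of 10, against 33.8% of all, and a TATA box in 1 (Vim), against 12.4%. The SOX core, the octamer and the GLI site, found in 10.7%, 1.6% and 0.225% of all windows, were in none of the 10. The G and C content was 54.8% for Fabp7, 72.0% for Sox2 and 60.8% for Pax6, against a median of 52.4% over all windows.

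Arrays of one group correlated at 0.990 to 0.997 over all genes, except the KO ES pair at 0.967, which stands apart: its replicate 1 had a mean of 10.28 over 10 mesenchymal genes and 9.16 over 10 pluripotency genes, against 8.33 and 10.34 in replicate 2. Top2b, the deleted gene, read 7.11 and 5.79 in KO ES cells, against 7.96 and 7.52 in WT ES cells. At the later stages its KO arrays lay between 6.77 and 9.04 and the WT arrays between 9.10 and 11.40, each KO array below each WT array of its stage. The 10 pluripotency genes averaged 5.96 to 5.998 on WT NP arrays, against 10.22 to 10.32 on WT ES arrays. The 12 pan-neuronal genes averaged 11.01 to 11.04 on WT arrays at TN day 6, 10.74 to 10.80 with DMSO at TN day 5 and 10.81 to 10.85 with DMSO in cortical neurons, against 7.21 to 7.35 on WT ES arrays. The position of the Top2b probe set relative to the deletion is not known here. Values are log2 expression levels of a gene's own probe set, so levels are compared between samples and not between genes.

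For 8 of the 10 genes the highest level was at the NP stage. The highest of the 12 group means was that of WT NP cells for Pax6, Sox1, Sox3, Sox9, Nes, Vim and Prom1 and that of KO NP cells for Gli3. Sox2 was highest in WT ES cells, and Fabp7 in DMSO-treated cortical neurons. The lowest mean was that of ICRF-193-treated TN day 5 neurons for Pax6, Sox2, Nes, Fabp7, Gli3 and Prom1. WT TN day 6 cells were lowest for Sox1 and Sox3, WT ES cells for Sox9 and ICRF-193-treated cortical neurons for Vim. The span between the highest and lowest group mean was widest for Fabp7 (6.60 log2 units), Sox2 (5.46) and Gli3 (5.29) and narrowest for Sox1 (1.42) and Sox3 (1.75). Many neighbours in the order of levels did not differ beyond their spread. Of the 11 pairs of neighbouring groups, the arrays did not overlap in 7 for Gli3, 6 for Prom1, 5 each for Pax6, Sox9 and Fabp7, 4 each for Sox2, Sox3 and Vim and 3 each for Sox1 and Nes. The same count was not made over all genes, so these numbers have no background to be read against.

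**Figure D1:**
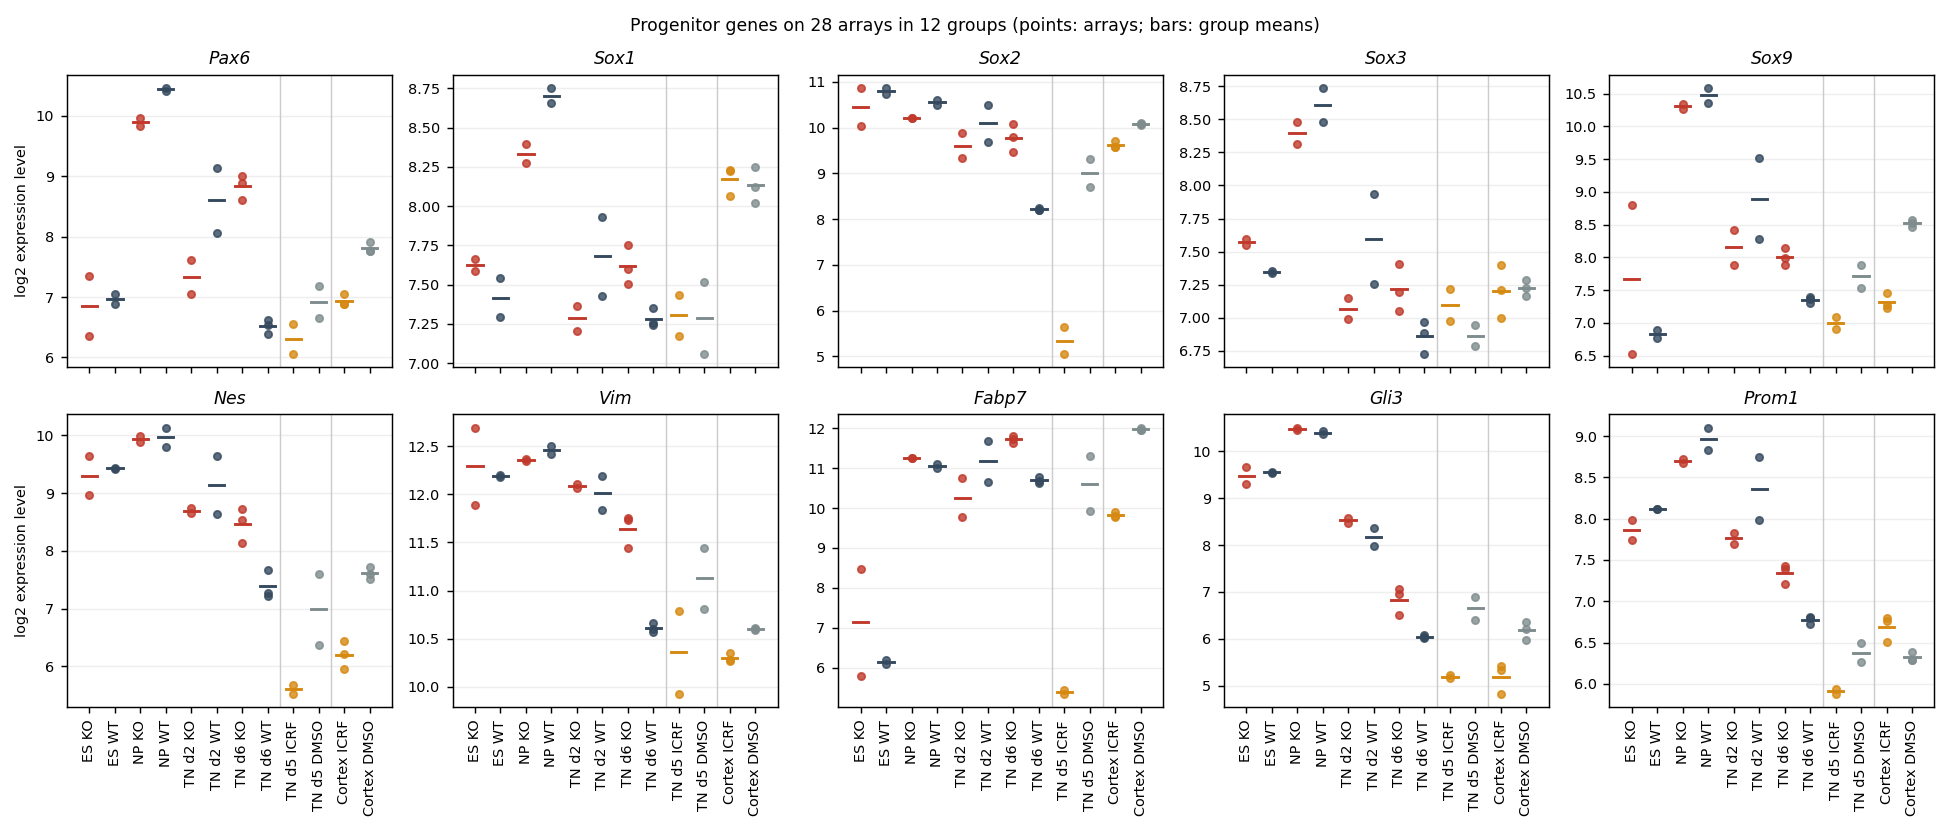
Log2 expression level (vertical axis, a separate scale for each gene) of the 10 genes in the 12 groups, with 1 point per array and a bar at each group mean. Pax6 is highest in NP cells. In KO cells it averages 7.34 at TN day 2 and 8.83 at TN day 6, against 8.60 and 6.52 in WT cells. Fabp7 and Sox2 average 5.38 and 5.34 in ICRF-193-treated TN day 5 neurons.

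The WT arrays show how the level of each gene changed during differentiation. In NP cells Pax6 read 10.47 and 10.41, against 7.05 and 6.89 in ES cells, a rise of 3.47 ± 0.29 (SE; limma, Benjamini-Hochberg adjusted p = 3.24e-09). As in any bulk sample, a change in the number of cells of a type and one in RNA per cell cannot be told apart. Fabp7 read 11.11 and 11.0001 in NP cells, against 6.08 and 6.20 in ES cells, a rise of 4.92 ± 0.52 (limma adjusted p = 1.17e-07). Sox9 read 10.59 and 10.36 in NP cells, against 6.77 and 6.89 in ES cells, a rise of 3.65 ± 0.43 (limma adjusted p = 4.33e-07). These changes correspond to 11.1-fold, 30.2-fold and 12.5-fold. Sox1 (1.28 ± 0.15), Sox3 (1.26 ± 0.17), Gli3 (0.85 ± 0.20) and Prom1 (0.85 ± 0.16) also rose. In all 7 of the 10 genes were higher in NP than in ES cells, where 46.3% of all genes were called (21.7% higher and 24.5% lower). Sox2 (-0.24, adjusted p = 0.485), Nes (0.54, 0.18) and Vim (0.27, 0.373) did not pass the test. Endoderm genes also rose at this step, 6 of 6 with a median of 1.31, averaging 7.24 to 7.28 in NP cells, against 5.76 to 5.89 in ES cells, and their part was not tested. Sox2, Nes and Vim were already at 10.73 or above, 9.41 or above and 12.18 or above on the WT ES arrays.

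Most of the 10 genes then fell as neurons formed, at different times. In WT cells at TN day 2 Gli3 read 8.37 and 7.98, against 10.43 and 10.38 in NP cells, and fell by 2.23 ± 0.20 (limma adjusted p = 3.74e-09). Pax6 (-1.84 ± 0.29), Sox9 (-1.58 ± 0.43), Sox1 (-1.02 ± 0.15), Sox3 (-1.01 ± 0.17), Nes (-0.82 ± 0.32) and Prom1 (-0.61 ± 0.16) fell at the same step. This made 7 of 10 lower, where 48.2% of all genes were called (21.6% higher and 26.6% lower). Without WT TN day 2 replicate 2 the calls for Sox9, Nes and Prom1 were lost, leaving 4. That array read lower than replicate 1 for 10 of 10 genes, by a median of 0.784, and its mean over the 10 mesenchymal genes was 9.35, against 7.49 in replicate 1. The part of this difference in the results was not tested.

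Between TN day 2 and TN day 6, 9 of the 10 genes fell in WT cells, where 28.5% of all genes were called (16.7% higher and 11.9% lower). Sox2 read 8.24, 8.21 and 8.19 at TN day 6, against 10.50 and 9.69 at TN day 2, and fell by 1.88 ± 0.24 (limma adjusted p = 4.02e-06). Gli3 (-2.13 ± 0.18), Pax6 (-2.08 ± 0.26), Nes (-1.75 ± 0.29), Prom1 (-1.59 ± 0.15), Sox9 (-1.55 ± 0.39) and Vim (-1.40 ± 0.21) fell as well. Sox3 (-0.74 ± 0.16) and Sox1 (-0.40 ± 0.14) fell least among those called. Fabp7 alone did not pass at either of these steps, with 0.12 (adjusted p = 0.881) and -0.47 ± 0.48 (adjusted p = 0.502), and its WT arrays at TN day 6 still read 10.64, 10.78 and 10.68. The Sox1 call was lost in 7 of 12 alternatives, among them quantile normalization (adjusted p = 0.0787) and median centring (0.0637). Without TN day 2 replicate 1 the calls for Sox1 (0.615), Sox3 (0.0877) and Sox9 (0.172) were lost, leaving 6. The 17 cell cycle genes measured fell at this step in 17 of 17 cases, with a median of -2.05, and 7 of 10 mesenchymal genes fell, with a median of -1.32. The part of these lists was not tested.

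In KO ES cells 0 of the 10 genes were called against WT by limma, where 0.351% of all genes were called (0.0853% higher and 0.266% lower, being 17 and 53 genes, or 5 and 46 with median centring). An unadjusted p under 0.05 was found for 0 of the 10, against 2995 of all 19938 genes. Sox9 read 8.80 and 6.52 in KO ES cells, against 6.77 and 6.89 in WT ES cells. Fabp7 read 8.48 and 5.79 in KO ES cells, against 6.08 and 6.20 in WT ES cells. For both genes KO replicate 1 was high and replicate 2 below the WT arrays. Without KO replicate 2, Sox9 (1.97, adjusted p = 3.31e-05) and Fabp7 (2.34, adjusted p = 0.000118) passed, and without KO replicate 1 they were at -0.31 and -0.35 and did not. Leaving out KO replicate 2 raised the share of all genes called to 25.2%, so 2 of 10 is near the background of that fit.

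In KO NP cells 0 of the 10 genes were called by limma, where 0.627% of all genes were called (0.381% higher and 0.246% lower). An unadjusted p under 0.05 was found for 1 of the 10 (Sox1), against 1501 of all 19938 genes. Pax6 read 9.84 and 9.96 in KO NP cells, against 10.47 and 10.41 in WT NP cells. The KO arrays were the lower ones and did not overlap, yet the difference of -0.54 ± 0.29 did not pass (adjusted p = 0.753; unadjusted 95% interval -1.143 to 0.063). Sox1 read 8.39 and 8.27 in KO NP cells, against 8.75 and 8.65 in WT NP cells (-0.37 ± 0.15, adjusted p = 0.535). Fabp7 at 11.26 and 11.26, against 11.11 and 11.0001 in WT, and Gli3 at 10.46 and 10.50, against 10.43 and 10.38 in WT, were on the other side. With 2 arrays per group, a p above the threshold does not show that the levels were equal.

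At TN day 2 several of the genes were lower in KO cells. Pax6 read 7.62 and 7.06 in KO cells, against 9.14 and 8.06 in WT cells, and fell by 1.26 ± 0.29 (limma adjusted p = 0.0062). Prom1 read 7.83 and 7.70 in KO cells, against 8.74 and 7.99 in WT cells, and fell by 0.60 ± 0.16 (limma adjusted p = 0.0199). Sox3 read 7.15 and 6.99 in KO cells, against 7.94 and 7.25 in WT cells, and fell by 0.53 ± 0.17 (limma adjusted p = 0.0498). The KO arrays did not overlap the WT arrays for these genes, and WT replicate 2 lay closer to the KO arrays than WT replicate 1 did. This gave 3 of 10 lower and 0 higher, where 11.5% of all genes were called (5.49% higher and 5.97% lower). The other 7 did not pass, among them Fabp7 (-0.91 ± 0.52, adjusted p = 0.323), Sox9 (-0.75 ± 0.43, 0.318), Sox2 (-0.49 ± 0.27, 0.290) and Gli3 (0.36 ± 0.20, 0.294).

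These calls at TN day 2 rest on few arrays. Without WT replicate 1 the adjusted p was 0.24 for Pax6, 0.575 for Prom1 and 0.753 for Sox3, and without KO replicate 2 it was 0.154, 0.201 and 0.329. With only the 4 arrays compared in the fit it was 0.122, 0.234 and 0.26. The mean over the mesenchymal genes was 9.35 and 9.68 in KO cells, against 7.49 and 9.35 in WT cells, and 4 of those 10 genes were called higher. Cell cycle genes averaged 9.55 to 9.56 in KO cells, against 8.91 to 9.03 in WT cells, with 7 of 17 higher, and pan-neuronal genes 10.29 to 10.58, against 10.90 to 10.98 in WT, with 7 of 12 lower. Their part in the lower progenitor genes was not tested.

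By TN day 6, 6 of the genes were higher in KO cells, among them Pax6 and Prom1, which were lower at TN day 2. Pax6 read 8.89, 9.002 and 8.61 in KO cells, against 6.53, 6.62 and 6.39 in WT cells, 4.98-fold higher (2.32 ± 0.24, limma adjusted p = 5.42e-07). Sox2 read 9.80, 10.07 and 9.48 in KO cells, against 8.24, 8.21 and 8.19 in WT cells, 2.96-fold higher (1.57 ± 0.22, limma adjusted p = 3.35e-05). The KO arrays of both genes stood more than a log2 unit above the WT arrays.

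The filament genes moved in the same direction at TN day 6. Nes read 8.54, 8.73 and 8.14 in KO cells, against 7.27, 7.67 and 7.22 in WT cells, and rose by 1.08 ± 0.26 (limma adjusted p = 0.00745). Vim read 11.73, 11.76 and 11.44 in KO cells, against 10.60, 10.66 and 10.57 in WT cells, and rose by 1.03 ± 0.19 (limma adjusted p = 0.000731). For both, the lowest KO array lay above the highest WT array. The Nes call was lost without KO replicate 2 (adjusted p = 0.0529).

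Gli3 and Prom1 were also higher in KO cells at TN day 6. Gli3 read 6.95, 7.05 and 6.50 in KO cells, against 6.01, 6.05 and 6.08 in WT cells (0.79 ± 0.16, limma adjusted p = 0.00194). Prom1 read 7.39, 7.43 and 7.21 in KO cells, against 6.81, 6.79 and 6.73 in WT cells (0.57 ± 0.13, limma adjusted p = 0.00655). Counted over the list, 6 of the 10 genes rose and 0 fell, where 10.2% of all genes were called (5.38% higher and 4.8% lower). The median over the 10 genes was 0.91, against 0.0018 over all genes.

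Fabp7 (1.03 ± 0.43, adjusted p = 0.162), Sox9 (0.66 ± 0.35, 0.316), Sox3 (0.36 ± 0.14, 0.121) and Sox1 (0.33 ± 0.13, 0.110) did not pass. The KO arrays lay above the WT arrays for 10 of 10 genes. The share of all genes with such arrays was not counted, so this count has no background to be read against. Fabp7 read 11.74, 11.80 and 11.63 in KO cells, against 10.64, 10.78 and 10.68 in WT cells, a difference close to that of Vim, and its SE is pooled over all 12 groups, among them the KO ES pair at 8.48 and 5.79. With array weights, all 10 genes were called higher, where 19.1% of all genes were called in either direction, against 10.2% in the main fit. Among the KO arrays replicate 2 was highest for 10 of 10 genes and replicate 3 lowest for 9.

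**Figure D2:**
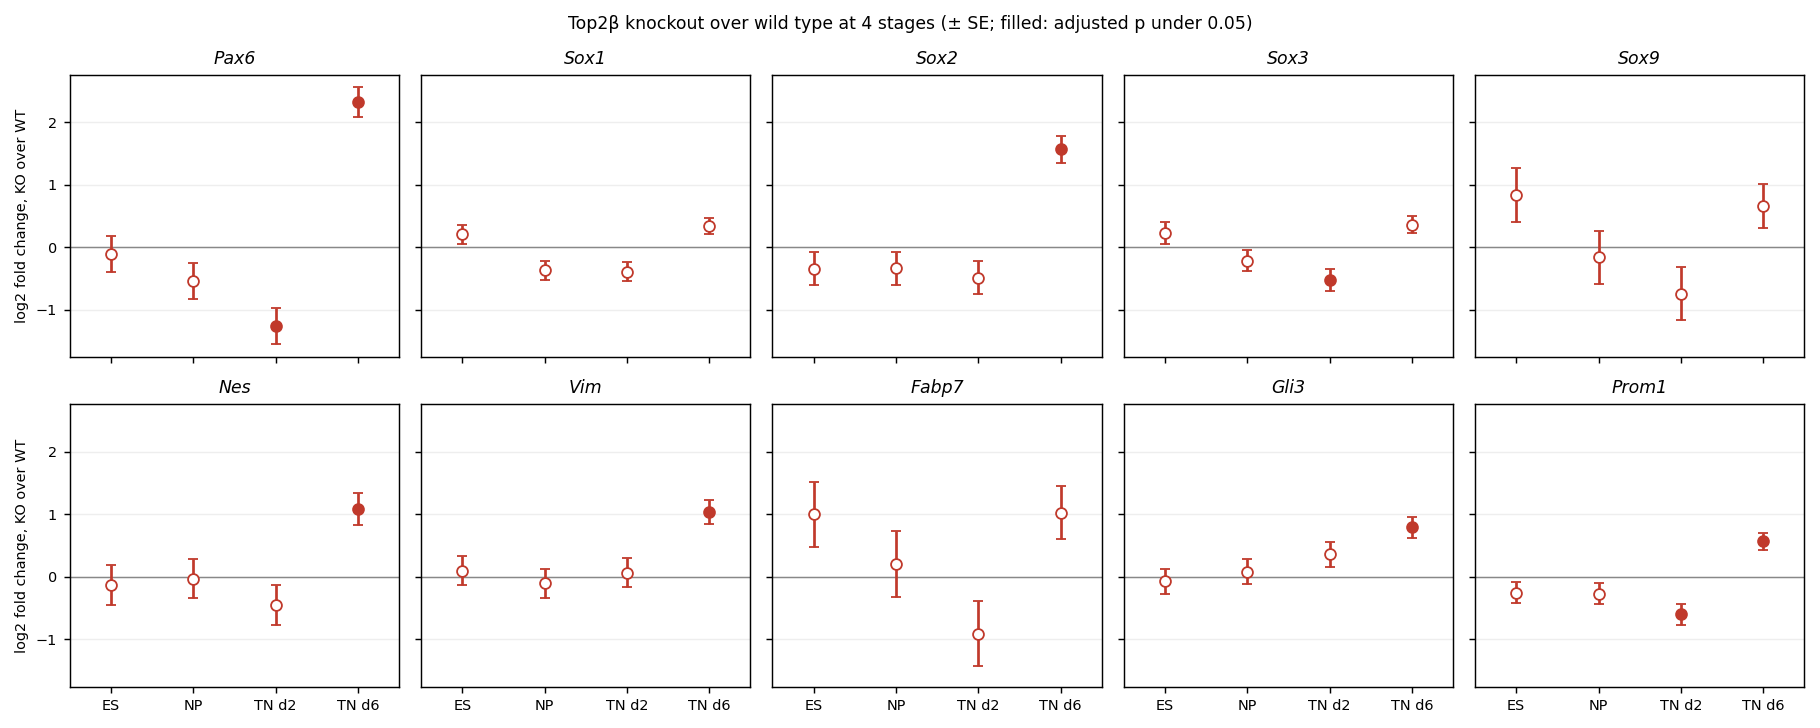
Log2 fold change of KO over WT cells (vertical axis, ± SE of the limma model) at the ES, NP, TN day 2 and TN day 6 stages for the 10 genes, filled where the adjusted p was under 0.05. Pax6 lies at -1.26 at TN day 2 and at 2.32 at TN day 6, and all 10 genes lie above 0 at TN day 6.

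The change in the KO effect between the stages was tested as an interaction. Relative to TN day 2, the KO difference at TN day 6 was higher for 6 of the 10 genes, where 4.8% of all genes were called (2.71% higher and 2.09% lower). The change was 3.58 ± 0.37 for Pax6 (limma adjusted p = 4.64e-06) and 2.06 ± 0.34 for Sox2 (0.000977). It was 1.53 ± 0.41 for Nes, 1.17 ± 0.21 for Prom1, 0.89 ± 0.22 for Sox3 and 0.73 ± 0.20 for Sox1, with limma adjusted p-values of 0.0344, 0.00202, 0.0207 and 0.0373. Vim (0.96, 0.0693), Fabp7 (1.93, 0.11), Sox9 (1.40, 0.165) and Gli3 (0.43, 0.414) did not pass. Only 3 calls were made when TN day 2 WT replicate 1, TN day 2 KO replicate 2, TN day 6 WT replicate 1 or TN day 6 KO replicate 2 was left out. Between ES and NP cells the change in the KO effect was called for 0 of the 10 genes by limma, against 0.256% of all genes (0.16% higher and 0.0953% lower). At an unadjusted p under 0.05 there was 1 of the 10, against 2015 of all 19938 genes. Between NP cells and TN day 2 the change in the KO effect was called for 0 of the 10 by limma, against 2.71% of all genes (1.38% higher and 1.33% lower, being 275 and 266 genes, or 160 and 301 with median centring). At an unadjusted p under 0.05 there were 0 of the 10, against 2999 of all 19938 genes.

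In KO cells Pax6 thus averaged 9.90 in NP cells, 7.34 ± 0.40 (SD, n = 2) at TN day 2 and 8.83 ± 0.20 (SD, n = 3) at TN day 6, and each KO array at TN day 6 lay above both at TN day 2. In WT cells it averaged 10.44, 8.60 ± 0.77 (SD, n = 2) and 6.52 ± 0.12 (SD, n = 3) at the same stages. The step within KO cells was not tested.

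Other genes of radial glia and progenitors were set beside these. Of 21, 11 rose and 1 fell in KO cells at TN day 6 (median 0.62), the largest changes being those of Sox21, a Sox factor of neural progenitors (1.68 ± 0.24, limma adjusted p = 4.4e-05), the growth factor receptor gene Fgfr3 (1.66 ± 0.18, 1.3e-06) and the Notch target Hes1 (1.21 ± 0.23, 0.00094). Dach1 fell by 0.49 ± 0.16 (limma adjusted p = 0.046). At TN day 2 the same 21 genes were divided, with 5 higher and 4 lower: Tnc, Emx2 and Hes1 rose by 1.66 ± 0.48, 1.64 ± 0.31 and 1.37 ± 0.28, while Ttyh1, Sox21 and the Notch target Hes5 fell by 1.40 ± 0.29, 1.33 ± 0.29 and 1.10 ± 0.25. In KO ES cells 1 of 21 was higher and 0 lower, and in KO NP cells 1 was higher and 1 lower.

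**Figure D3:**
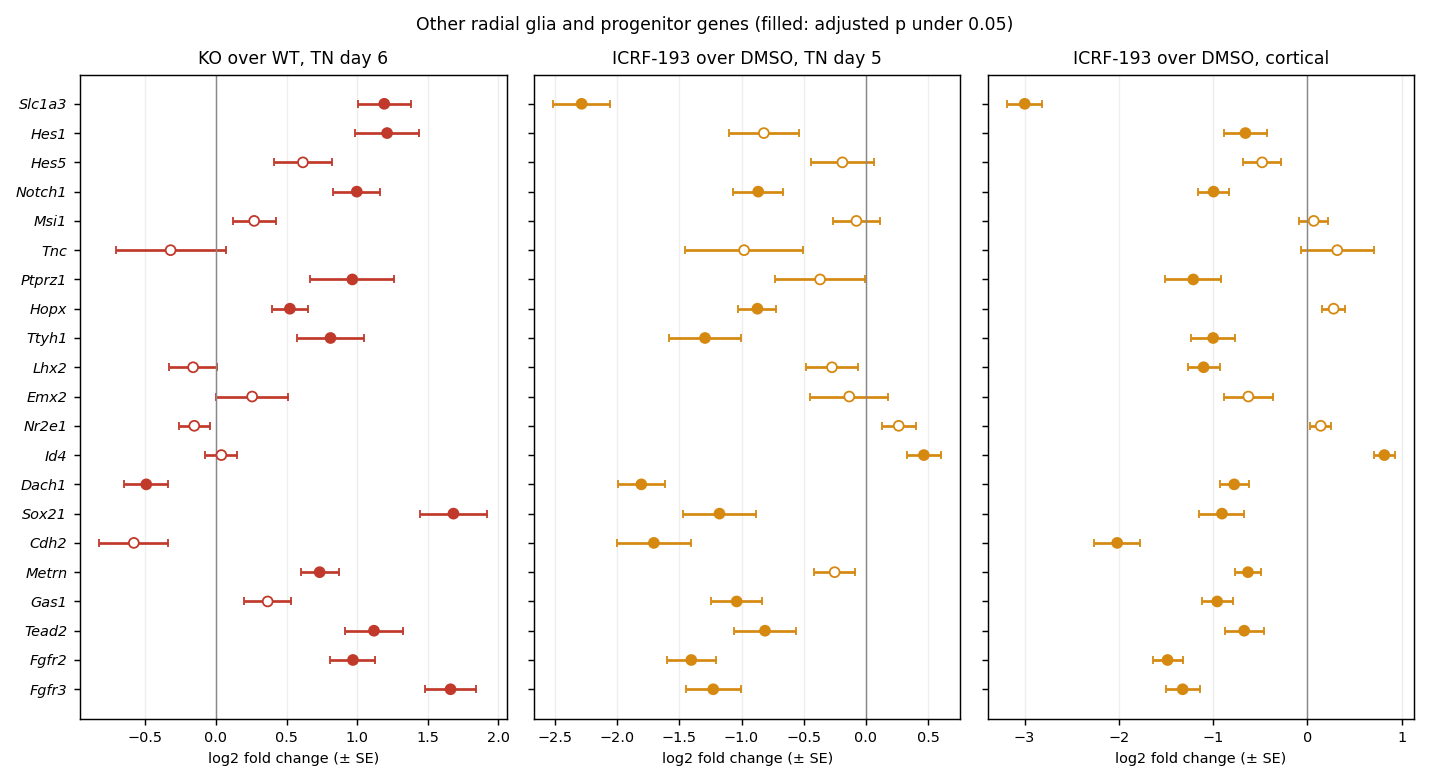
Log2 fold change (horizontal axis, ± SE of the limma model) of 21 other radial glia and progenitor genes in KO over WT cells at TN day 6 and in ICRF-193 over DMSO in TN day 5 and cortical neurons, filled where the adjusted p was under 0.05. In KO cells 11 rose and 1 fell, and with ICRF-193 1 rose and 11 fell at TN day 5 and 1 rose and 14 fell in cortical neurons.

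Families and pathways related to the 10 genes were counted at TN day 6 as well. Of 14 other Sox genes 2 were higher in KO cells and 0 lower. Of 13 hedgehog pathway genes 3 were higher and 0 lower, among them the hedgehog receptor gene Ptch1 (0.83 ± 0.14) and the signal transducer gene Smo (0.61 ± 0.14). Of 10 other intermediate filament genes 5 were higher and 0 lower, among them Prph, the filament of peripheral neurons (1.31), and the keratin genes Krt18 (1.10) and Krt8 (1.05). Of 8 intermediate progenitor genes 3 were higher and 0 lower, including the proneural genes Neurog1 (0.83 ± 0.19) and Neurog2 (0.53 ± 0.11).

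Other markers moved with the progenitor genes in KO cells at TN day 6. Cell cycle genes averaged 7.66 to 8.17 on the KO arrays, against 6.86 to 7.03 on the WT arrays, with 16 of 17 higher, among them Ccnd1 (2.05 ± 0.17), Bub1 (1.68 ± 0.20) and Kif11 (1.47 ± 0.20). Epithelial genes averaged 6.57 to 7.73 on the KO arrays, against 6.11 to 6.395 on the WT arrays, with 6 of 6 higher. Pan-neuronal genes averaged 10.96 to 11.02 on the KO arrays, against 11.01 to 11.04 on the WT arrays, with 2 of 12 higher and 1 lower. The part of these lists in the progenitor gene results was not tested.

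**Figure D4:**
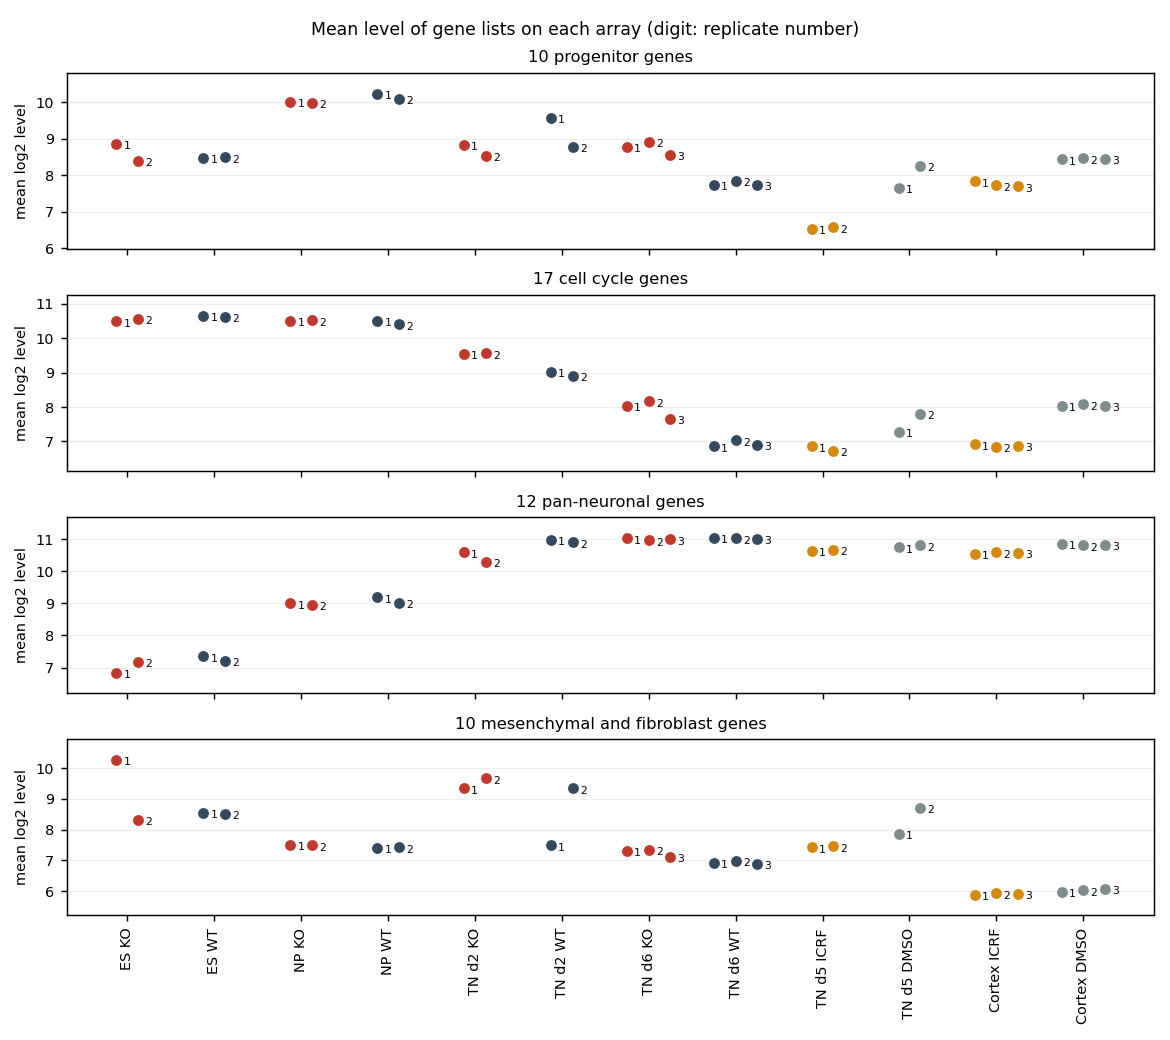
Mean log2 expression level on each array (vertical axis) of the 10 progenitor genes and of the cell cycle, pan-neuronal and mesenchymal lists, by group, with the replicate number beside each point. At TN day 6 the cell cycle genes lie at 7.66 to 8.17 in KO cells, against 6.86 to 7.03 in WT cells, and in cortical neurons they lie at 6.85 to 6.92 with ICRF-193, against 8.03 to 8.09 with DMSO.

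In neurons at TN day 5, ICRF-193 went with very low levels of some of the genes. Fabp7 read 5.34 and 5.43 with ICRF-193, against 9.92 and 11.31 with DMSO, 37.5-fold lower (-5.23 ± 0.52, limma adjusted p = 4.42e-07). Sox2 read 5.63 and 5.05 with ICRF-193, against 8.70 and 9.32 with DMSO, 12.7-fold lower (-3.67 ± 0.27, limma adjusted p = 3.47e-09). For both genes the treated arrays lay more than 3 log2 units below the DMSO arrays, and their treated levels were the lowest of the 12 groups. The treated means, 5.38 for Fabp7 and 5.34 for Sox2, lay below the median of every array and within the 5.33 to 5.78 at which the pluripotency list averaged on the TN day 5 arrays. The files give no background level, so these folds are those of the readings and may be limited by a floor.

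Gli3 read 5.23 and 5.16 with ICRF-193, against 6.41 and 6.89 with DMSO, and fell by 1.46 ± 0.20 (limma adjusted p = 3.36e-05). Nes read 5.68 and 5.52 with ICRF-193, against 6.37 and 7.60 with DMSO, and fell by 1.39 ± 0.32 (limma adjusted p = 0.00791). Vim read 9.93 and 10.79 with ICRF-193, against 10.80 and 11.45 with DMSO, and fell by 0.77 ± 0.23 (limma adjusted p = 0.0425). The Vim arrays nearly touched, at 10.79 with ICRF-193 and 10.80 with DMSO, and its call was lost with quantile normalization (adjusted p = 0.061). Without DMSO replicate 2 the calls for Nes (adjusted p = 0.255) and Vim (0.485) were lost, and without ICRF-193 replicate 1 that for Vim (0.552). With only the 4 arrays compared they were lost too (0.115 and 0.322).

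In sum 5 of the 10 genes fell and 0 rose at TN day 5, where 8.89% of all genes were called (2.51% higher and 6.37% lower; 501 and 1271 genes, or 294 and 1579 with median centring). Pax6 (-0.62 ± 0.29, adjusted p = 0.202), Sox9 (-0.72 ± 0.43, 0.323), Prom1 (-0.46 ± 0.16, 0.0827), Sox3 (0.23, 0.44) and Sox1 (0.02, 0.958) did not pass. Within the Sox genes of the list, Sox2 thus differed by 12.7-fold while Sox1 read 7.44 and 7.18 with ICRF-193, against 7.06 and 7.51 with DMSO, with overlapping arrays. The DMSO means of Sox1 (7.29) and Sox3 (6.87) were already near their lowest group means, 7.28 and 6.86 in WT TN day 6 cells. Whether these 2 genes could read lower is not known, while Sox2 started from a DMSO mean of 9.01. DMSO replicate 2 was the higher of its pair for 10 of 10 genes, by a median of 0.512. Its means were also higher for cell cycle genes (7.80, against 7.27 in replicate 1) and mesenchymal genes (8.71, against 7.86 in replicate 1). With ICRF-193 cell cycle genes averaged 6.73 to 6.85, with 12 of 17 lower, and mesenchymal genes 7.43 to 7.46, with 1 of 10 lower, and the part of both was not tested.

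In cortical neurons 5 of the 10 genes were lower and 1 was higher after ICRF-193, where 23.4% of all genes were called (9.72% higher and 13.7% lower; 1938 and 2726 genes, or 792 and 4103 with median centring). Fabp7 read 9.91, 9.78 and 9.81 with ICRF-193, against 11.96, 11.96 and 12.02 with DMSO, 4.42-fold lower (-2.15 ± 0.43, limma adjusted p = 0.000874). Nes read 6.44, 6.22 and 5.95 with ICRF-193, against 7.59, 7.72 and 7.51 with DMSO, and fell by 1.41 ± 0.26 (limma adjusted p = 0.000412). In both genes the treated arrays lay at least a log2 unit below the DMSO arrays.

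Gli3 read 5.33, 4.82 and 5.43 with ICRF-193, against 6.36, 6.21 and 5.98 with DMSO, and fell by 0.99 ± 0.16 (limma adjusted p = 0.000104). Its treated mean of 5.19 lay below the median of every array, so this fall may be limited by a floor. Sox9 read 7.23, 7.46 and 7.27 with ICRF-193, against 8.46, 8.58 and 8.53 with DMSO, and fell by 1.20 ± 0.35 (limma adjusted p = 0.0158; 0.051 without ICRF-193 replicate 1). Pax6 read 7.04, 6.89 and 6.88 with ICRF-193, against 7.76, 7.76 and 7.92 with DMSO, and fell by 0.88 ± 0.24 (limma adjusted p = 0.0102). None of these arrays overlapped between the treatments.

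Prom1 was the exception, at 6.79, 6.77 and 6.51 with ICRF-193, against 6.29, 6.29 and 6.38 with DMSO (0.37 ± 0.13, limma adjusted p = 0.0499), but that call was lost in 8 of 13 alternatives. Sox2 read 9.58, 9.71 and 9.58 with ICRF-193, against 10.07, 10.10 and 10.08 with DMSO, lower on each treated array without passing the test (-0.46 ± 0.22, limma adjusted p = 0.136; unadjusted 95% interval -0.908 to -0.003). Vim (-0.30 ± 0.19, 0.269), Sox1 (0.04, 0.848) and Sox3 (-0.02, 0.92) did not pass either.

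The drug difference itself was compared between the preparations. It was larger at TN day 5 than in cortical neurons for Sox2, by 3.21 ± 0.34 (limma adjusted p = 2.38e-06), and for Fabp7, by 3.08 ± 0.68 (0.00729), and it differed by 0.83 ± 0.21 for Prom1 (0.0227). These are 3 of the 10 genes, where 4.37% of all genes were called (1.69% higher and 2.68% lower; 336 and 535 genes, or 231 and 581 with median centring). For Sox2 and Fabp7 this difference rests on the same low treated readings at TN day 5. The differences for the other 7 did not pass, and without TN day 5 DMSO replicate 2 only 1 call was made. The cells, their age and possibly the days of treatment differ between the experiments and cannot be told apart.

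**Figure D5:**
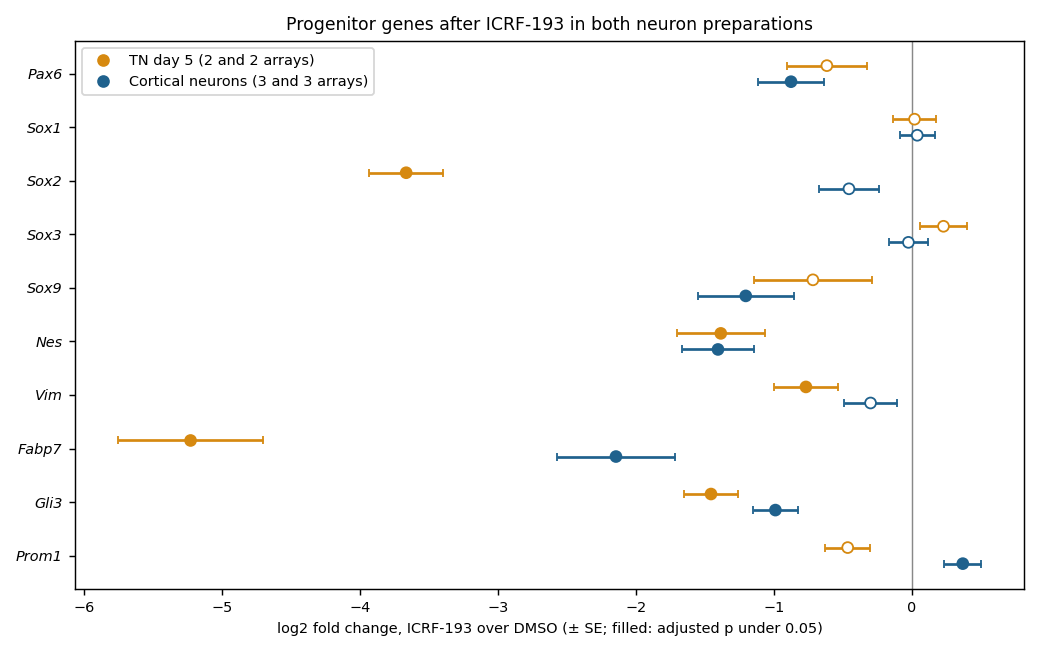
Log2 fold change of ICRF-193 over DMSO (± SE of the limma model) for the 10 genes in TN day 5 neurons and in cortical neurons, filled where the adjusted p was under 0.05. Sox2 lies at -3.67 at TN day 5 and at -0.46 in cortical neurons, and Fabp7 at -5.23 and -2.15.

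Of the 21 other radial glia and progenitor genes 11 fell and 1 rose at TN day 5 (median -0.87), and 14 fell and 1 rose in cortical neurons (median -0.78). The glutamate transporter gene Slc1a3, expressed in radial glia and astrocytes, differed by -2.29 ± 0.23 at TN day 5 (limma adjusted p = 4.3e-07) and by -2.999 ± 0.19 in cortical neurons (7.1e-11). The N-cadherin gene Cdh2 fell by 1.70 ± 0.30 and 2.02 ± 0.24, and Id4, an inhibitor of bHLH factors, rose by 0.47 ± 0.14 and 0.82 ± 0.11. In cortical neurons 6 of 14 other Sox genes fell, among them Sox6 (-1.68) and Sox5 (-1.08).

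In the cortical cultures the markers of other cell types moved as well. Astrocyte genes averaged 6.29 to 6.34 with ICRF-193, against 7.502 to 7.73 with DMSO, with 6 of 8 lower, among them Aldoc (-2.42) and Aqp4 (-2.06). Oligodendrocyte lineage genes averaged 5.95 to 5.99 with ICRF-193, against 7.24 to 7.37 with DMSO, with 4 of 7 lower, among them Pdgfra (-3.75) and Olig2 (-2.52). Cell cycle genes averaged 6.85 to 6.92 with ICRF-193, against 8.03 to 8.09 with DMSO, with 15 of 17 lower. Microglia genes averaged 6.96 to 7.09 with ICRF-193, against 6.29 to 6.43 with DMSO, with 9 of 10 higher. Several of the progenitor genes are also expressed in astrocytes, and the part of these cells in the results was not tested.

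Between the DMSO groups, cortical neurons had higher Fabp7, Sox2, Pax6 and Sox1 than TN day 5 neurons, by 1.37 ± 0.48, 1.07 ± 0.24, 0.89 ± 0.26 and 0.85 ± 0.14. Vim (-0.52 ± 0.21) and Gli3 (-0.47 ± 0.18) were lower in cortical neurons. That made 4 higher and 2 lower of 10, where 44.8% of all genes were called (24.4% higher and 20.4% lower; 4865 and 4073 genes, or 7532 and 1700 with median centring). That centring put the median difference of all genes at 0.1845, against -0.0325 without it. With it 7 of the 10 were higher and 0 lower, so the calls for Vim and Gli3 depend on the scaling. Leaving out any 1 array gave 3 to 5 calls. Without TN day 5 DMSO replicate 1 the calls for Pax6 (adjusted p = 0.171), Sox2 (0.0589) and Fabp7 (0.415) were lost, and without cortical DMSO replicate 3 those for Fabp7 (0.0532), Vim (0.0928) and Gli3 (0.148). Sox1 was called in each of the 12 alternatives. Markers of other cells differed too, with astrocyte genes 6 of 8 higher in cortical neurons (median 1.35), oligodendrocyte lineage genes 4 of 7 higher, microglia genes 5 of 10 higher, cell cycle genes 11 of 17 higher and mesenchymal genes 8 of 10 lower. Their part was not tested. Preparation and origin cannot be told apart here.

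The 10 genes did not share one profile. Over the 12 group means, the Pearson correlation of the 45 pairs had a median of 0.657. The closest pairs were Gli3 and Vim (0.955), Vim and Nes (0.945), Gli3 and Nes (0.943) and Prom1 and Nes (0.936). The least alike were Gli3 and Fabp7 (0.013), Fabp7 and Vim (0.048) and Prom1 and Fabp7 (0.168). These are descriptions over points that share a table and a differentiation series. Among 6699 other genes with an SD of the group means above 0.5, the most like Pax6 were Fgfbp3 (0.95), Foxb1 (0.949) and Sema5b (0.943), and the most like Sox9 were Sema5b (0.964), Grm2 (0.942) and Nrarp (0.941). Those most like Gli3 were Tcf7l2 (0.99), E2f5 (0.987) and Mdk (0.986), those most like Vim were Dera (0.982), Tead2 (0.981) and Btg2 (0.977), and those most like Nes were Limd1 (0.978), H2az2 (0.974) and Srebf1 (0.97). For Prom1 they were Tfdp2 (0.984), H2az2 (0.964) and Sass6 (0.962), and for Sox1 they were Sp8 (0.948), Entpd3 (0.937) and Car11 (0.917). Sox3 was closest to Ripply3 (0.945), 2600006K01Rik (0.945) and Chrnb4 (0.944), and Sox2 to Alg14 (0.909), Elovl5 (0.899) and Ankrd49 (0.893). Fabp7 had the least similar neighbours, Epha3 (0.865), Itgb8 (0.857) and Ednrb (0.855).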

How the data were processed

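RNA of 28 samples in 12 groups was measured on Affymetrix arrays. The deposited table held 1 log2 value for each of 35556 probe sets and array, which the authors made with oligo (version 1.14.0 in the submitters' processing notes). How probes were summarized, which background was removed and which logarithm was taken is not given in the sources used here. Base 2 was read from the range of 1.963 to 13.99. Array medians lay between 6.12 and 6.43, and no further normalization was applied. The number of arrays limits the precision.

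Probe sets with 1 gene symbol (21789) were used, those with several (1621) or no entry (12146) were left out, and for 999 genes with more than 1 the probe set with the highest mean was kept, giving 19938 genes. All arrays entered a model of group means in limma (version 3.58.1, R 4.3.3; 16 residual and 4.87 prior degrees of freedom). The two-sided p-values were adjusted by Benjamini and Hochberg over all genes in each of 14 comparisons, with a threshold of 0.05. The fit was tested on simulated data. Pairs of comparisons share arrays where they share a group.

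The members, lists and rules were chosen with earlier results of these data known. All members were named in each comparison. Of every other list, at most the 3 called genes with the largest change in each direction were eligible. For each member, the 3 genes most alike were named. Alternatives were quantile normalization, median centring, array weights, mean of probe sets, dim genes left out (group mean above 6 kept 14502 genes and all 10 members), only the arrays compared, a replicate block and leaving out each array. Promoters came from RefSeq (GRCm38.p6). Some listed genes are not reported here.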

Additional observations from a re-analysis of the deposited data

Results flagged for a closer look

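The KO difference changed between TN day 2 and TN day 6, by the test of the difference itself, for 6 of the 10 genes. Of all genes, 4.8% were called. The change, TN day 6 minus TN day 2, was 3.58 for Pax6, 2.055 for Sox2, 1.529 for Nes, 1.166 for Prom1, 0.8863 for Sox3 and 0.729 for Sox1 on the log2 scale. On each of these genes the KO mean lay above the WT mean at TN day 6 and below it at TN day 2. Only Pax6 and Prom1 were called against WT at both stages. Sox3 was called at TN day 2 only, Sox2 and Nes at TN day 6 only, and Sox1 at neither stage. As described above, the calls at TN day 2 rest on few arrays. The calls for Nes, Sox3 and Sox1 were each lost in several fits that left out 1 array.

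The ICRF-193 difference was not the same in cortical neurons and at TN day 5, by the same kind of test, for 3 genes. Of all genes, 4.37% were called. The change, cortical neurons minus TN day 5, was 3.2108 for Sox2, 3.0848 for Fabp7 and 0.8347 for Prom1. For Sox2 and Fabp7 the treated mean lay below the DMSO mean in both preparations, and for Prom1 it lay above it in cortical neurons and below it at TN day 5. The Prom1 call was lost in several fits that left out 1 array, and the Fabp7 call without TN day 5 DMSO replicate 2.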

How the results depend on the processing

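Across 140 results for the members, 58 were called, of which 34 kept their call in every alternative run and 24 lost it in at least 1. Of 82 that were not called, 22 gained a call somewhere. Over 1810 comparisons of a result with an alternative, 0 called values reversed. Apart from leaving out arrays, the number of members called moved by more than 1.5 times in 3 cases: with only the arrays compared, 0 in KO cells at TN day 2 (3 in the full model) and 3 with ICRF-193 at TN day 5 (5), and with array weights, 10 in KO cells at TN day 6 (6). With only the arrays compared, 9 were called in KO cells at TN day 6, where 14.5% of all genes were called. Leaving out 1 array gave 0 to 2 members called in KO ES cells, 0 to 0 in NP cells, 0 to 4 at TN day 2 and 5 to 6 at TN day 6. It gave 3 to 5 for ICRF-193 at TN day 5 and 4 to 6 in cortical neurons. For the WT steps it gave 7 to 7 (NP against ES), 4 to 8 (TN day 2 against NP) and 6 to 9 (TN day 6 against TN day 2), and 3 to 5 for cortical against TN day 5 neurons. The changes in KO effect gave 0 to 2 (NP minus ES), 0 to 1 (TN day 2 minus NP) and 3 to 8 (TN day 6 minus TN day 2), and the change in drug effect 1 to 3.

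Counts over all genes differed by more than 1.5 times in several fits. With only the arrays compared, KO ES cells had 0 (70 in the full model), NP cells 201 (125), TN day 2 315 (2284), ICRF-193 at TN day 5 385 (1772) and cortical neurons 7960 (4664). With array weights these were 0 in ES cells, 251 in NP cells, 3816 at TN day 6 (2030), 742 for ICRF-193 at TN day 5 and 8967 in cortical neurons. Leaving out 1 array gave 5 to 5018 genes in KO ES cells, 37 to 72 in NP cells, 504 to 2364 at TN day 2, 1394 to 1840 at TN day 6 and 684 to 2291 for ICRF-193 at TN day 5. It gave 5577 to 8192 between the DMSO groups (8938). For the changes in KO effect it gave 17 to 3172 (51; NP minus ES), 112 to 850 (541; TN day 2 minus NP) and 389 to 1425 (957; TN day 6 minus TN day 2), where fitting only the arrays compared gave 0 for NP minus ES and 188 for TN day 2 minus NP, and array weights gave 0 for NP minus ES and 1555 for TN day 6 minus TN day 2.

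Correlations of same-numbered arrays between the compared groups were taken on deviations from the group means. They were 0.038 in ES cells, -0.23 in NP cells, 0.137 at TN day 2 and 0.379 at TN day 5. At TN day 6 and in cortical neurons they were -0.062 to 0.071. The TN day 5 value was the highest, and the numbers were not taken to pair the samples at any stage. With the replicate block 6 members were called in KO cells at TN day 6, 3 at TN day 2, 5 for ICRF-193 at TN day 5 and 6 in cortical neurons. In the same order, that fit called 1988, 2214, 1586 and 4555 of all 19938 genes. The crossed block, added after seeing the data, called 121 genes and 0 members in NP cells, against 125 and 0. Groups of 2 or 3 arrays limit what differences can be seen, and a lone array left in a group was assumed to vary like the other groups.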

Other observations

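Scaled to mean 0 and SD 1 over the 12 groups and averaged, the 10 genes stood at 1.233 in KO NP cells and 1.452 in WT NP cells, 0.012 in KO and 0.481 in WT cells at TN day 2, and 0.088 in KO and -0.717 in WT cells at TN day 6. They stood at -1.427 with ICRF-193 and -0.581 with DMSO at TN day 5, and at -0.557 with ICRF-193 and -0.123 with DMSO in cortical neurons. The genes most like this mean profile were Nsmce4a (r = 0.943), Heg1 (0.937), Gprc5b (0.935), H2az2 (0.933) and Pde3b (0.931) over the 12 group means.

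In cortical neurons the proneural gene Neurog2 rose by 1.17 ± 0.11 after ICRF-193, while 1 of the 8 intermediate progenitor genes fell, where 23.4% of all genes were called. Those 8 genes averaged 7.01 to 7.06 with ICRF-193, against 6.97 to 7.03 with DMSO, so Neurog2 does not stand for the list. In WT cells the change from ES to NP cells included rises of Boc, a hedgehog co-receptor gene (3.44), and Sox11 (2.45), and a fall of Gli1 (-1.05). At that step 46.3% of all genes were called.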
